A study of Arabidopsis thaliana with 12 samples.

Results

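Shoots of the Arabidopsis thaliana irt1 mutant kept on Fe were set against shoots of Fe-deficient wild type, over every probe set of an Affymetrix array except the control probe sets. The members were chosen from the sample titles alone: the 2 shoot arrays of irt1 with Fe and the 2 shoot arrays of wild type without Fe, 4 of the 12 arrays of the series. All plants were 15 days old and had 10 days on a control medium followed by 5 days on agar from which contaminant metals had been washed with EDTA. The mutant is irt1-2 (pam42) and stayed on 10 µM Fe-HBED, a chelate of Fe, while the Col-0 wild type received no Fe. Wild-type shoots on 10 µM Fe-HBED and roots of the same 3 conditions make up the other arrays, with 2 biological replicates in each of the 6 groups. Days had 11 h of light and 13 h of dark, and the harvest was at ZT 3 h, that is, 3 h after lights on. The number of plants behind an array is not given in the sources used here.

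IRT1 is the main Fe(II) transporter of the Arabidopsis root epidermis and also carries Zn, Mn, Co and Cd. A plant that lacks it can be short of Fe on a medium that holds Fe, and the mutant is known for pale leaves. In leaves, Fe shortage is known to raise the group Ib bHLH factors and the small IMA peptides, which signal the Fe state, and to lower chloroplast and Fe storage proteins. The comparison therefore puts 2 possible routes to Fe shortage side by side in the same organ. They are loss of the transporter on an Fe-containing medium, and removal of Fe from a plant with an intact transporter. The Fe content of the shoots was not analysed here. The 2 groups differ in genotype and in medium at once, so a difference between them cannot be assigned to either.

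The arrays carried the labelled organ. RCA, which encodes Rubisco activase, lay between 12.5 and 12.7 on the log2 scale in shoots and between 6.4 and 7.6 in roots. The root peroxidase gene PER27 lay between 3.3 and 4.6 in shoots and between 11.5 and 12 in roots. The 50 probe sets with the largest excess of roots over shoots in Fe-supplied wild type were then followed on the arrays not used to pick them. Their mean was 3.82 to 3.98 on the Fe-deficient and irt1 shoot arrays and 9.91 to 10.2 on the corresponding root arrays. Array medians were 5.4 to 5.6, and replicates correlated across probe sets with r from 0.991 to 0.996. One irt1 shoot array, replicate 1, had a GAPDH 3' minus 5' signal of 1.6 against 0.7 to 1 on the other arrays, and an actin value of 1.9 against 1 to 1.7. Its part in the results was not tested, and counts without it are given below. The probe set of IRT1 carries no name in the annotation used, so the disrupted gene itself cannot be followed by name. Unnamed probe sets were tested and counted with the rest, so a probe set of IRT1 can be among the calls. Each shoot array measured a whole organ, in which fewer cells of a type and less RNA per cell cannot be told apart.

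The irt1 shoots and the Fe-deficient wild-type shoots had similar levels for most of the transcriptome. Of 22746 probe sets, 22140 (97.3%) had group means within 0.5 log2 units. The like share for other comparisons is not given here, so this does not show that these groups were especially close. In limma, with all 12 arrays in the model and Benjamini-Hochberg adjustment, 93 probe sets were called at an adjusted p under 0.05, which is 0.409% of those tested. Of these, 28 (0.123%) were higher in irt1 and 65 (0.286%) lower. At least 2-fold apart and called were 50 (0.22%), 10 higher and 40 lower. For scale, the same model called 1106 probe sets (4.86%) between wild-type shoots without and with Fe, 813 (3.57%) between irt1 and wild-type shoots with Fe, and 416 (1.83%) between irt1 and Fe-deficient wild-type roots. The first 2 of those comparisons share arrays with the one described here.

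The called differences were moderate, with a few large ones on the lower side. The median of the 28 higher probe sets was 0.85 log2 units, with a maximum of 1.9. The median of the 65 lower probe sets was -1.10, with a minimum of -3.55. The 2 irt1 arrays and the 2 wild-type arrays did not overlap in any of the 93. A call itself favours groups that do not overlap, and the share over all probe sets is not given here. The count is therefore no further support. Of the 93, 49 have 1 gene in the annotation (16 higher and 33 lower), 2 have several and 42 are unnamed. The count leans on a spread estimated over roots as well as shoots. Replicate differences had an SD of 0.29 in irt1 shoots, 0.22 in Fe-deficient shoots and 0.293 in Fe-supplied shoots. In the root groups the SD was 0.188 to 0.219. With the 6 shoot arrays alone no probe set was called (lowest adjusted p 0.139). There 1607 had an unadjusted p under 0.05, against 2364 with all arrays. With the 4 arrays alone none was called either (lowest adjusted p 0.404, with 1949 at an unadjusted p under 0.05). The fits with 1 array left out, given next, leave 1 array in a group, and part of their calls were not among the 93. Leaving out 1 array at a time gave 48 calls without irt1 replicate 1, 51 without irt1 replicate 2, 22 without Fe-deficient wild-type replicate 1 and 57 without its replicate 2, and 13 probe sets were called in all 4 of these fits.

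**Figure D1:**
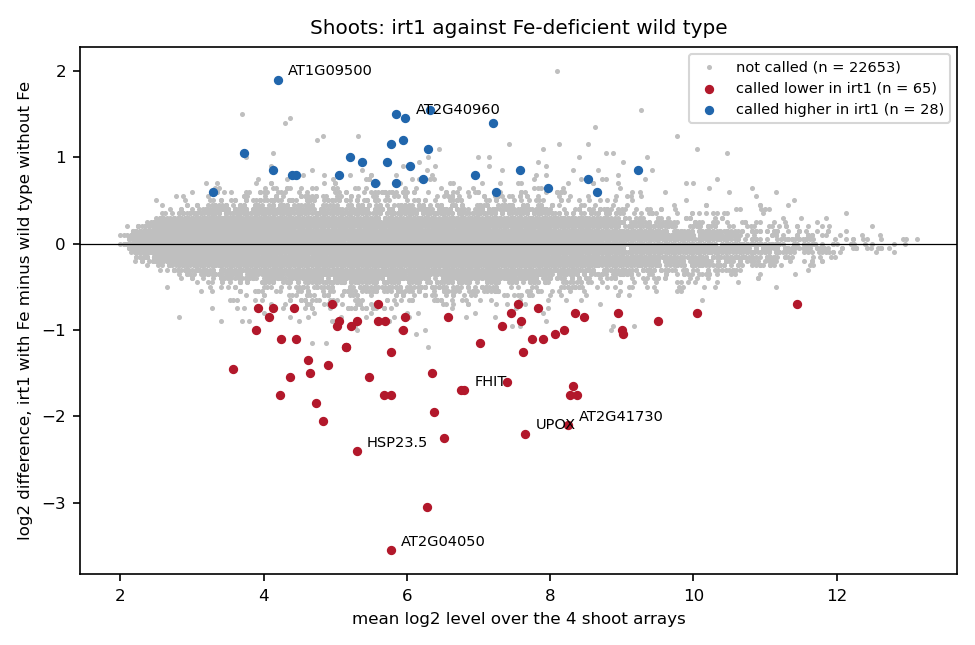
Log2 difference between irt1 shoots with Fe and wild-type shoots without Fe (vertical axis) against the mean log2 level of the 4 arrays (horizontal axis), 1 point per probe set, with the 93 called probe sets coloured by direction. Most points lie within 0.5 of 0, and the called probe sets reach -3.55 on the lower side and 1.9 on the higher side.

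No measured regulator of the Fe-deficiency response was called between the 2 kinds of shoot. Of 20 regulator genes on the list, 10 were measured under their name, and none was called in either direction (lowest adjusted p 0.221), where 0.409% of all probe sets were called. A count of 0 of 10 is near that background and does not show that the levels were alike. IMA1, BTSL1, PYE and bHLH115 were lower on both irt1 arrays than on both Fe-deficient wild-type arrays without passing the threshold. BTSL2 and bHLH121 were higher on both irt1 arrays, also without a call. The share of all probe sets without overlap is not given here, so no direction of the list is read from these genes. The median difference of the 10 measured regulators was -0.10, beside 0 for all probe sets. bHLH101, a group Ib bHLH transcription factor induced by Fe shortage, was at 8.8 and 9.2 in Fe-deficient wild type, at 9.2 and 8.8 in irt1, and at 3.2 and 3.0 in wild type with Fe. The difference between irt1 and Fe-deficient wild type was 0.00 ± 0.20 (SE, 2 arrays a group), with an unadjusted 95% interval from -0.45 to 0.45. Both irt1 and Fe-deficient wild type thus lay far above the Fe-supplied wild type and covered the same range.

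IMA1, one of the small IMA peptide genes, was at 10.4 and 10.5 in Fe-deficient wild type, 10 and 9.6 in irt1, and 3.6 and 3.3 in wild type with Fe. Its difference of -0.65 ± 0.21 (adjusted p = 0.303, interval -1.11 to -0.19) did not pass the threshold, although the 2 groups did not overlap. BTSL1, an E3 ligase gene that restrains Fe uptake in roots, was at 5.7 and 5.9 without Fe, 5.3 and 5.1 in irt1, and 3.3 and 3.8 with Fe, a difference of -0.60 ± 0.17 (adjusted p = 0.221). PYE, a bHLH factor that represses Fe storage and transport genes, was at 7.3 and 7.4 without Fe, 7.2 and 6.9 in irt1, and 5.1 on both Fe-supplied arrays. Its difference was -0.30 ± 0.12 (adjusted p = 0.427). The group IVc factors ILR3, bHLH104, bHLH34 and bHLH115, which act upstream of the group Ib factors, differed by -0.05, 0.05, -0.15 and -0.35, and bHLH121 (URI), which acts with them, by 0.30. BTSL2 differed by 0.20.

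Genes of Fe handling were likewise without a call in shoots. The 4 named genes of the Fe transport and coumarin list and 4 of Fe storage and Fe enzymes were measured without a call. So were 6 of Zn and Mn transport and 2 of Cu homeostasis. The list medians were 0.10, 0.15, -0.125 and 0 in that order. Over all probe sets 0.409% were called, so counts of 0 in such short lists do not show that the levels were alike. SAPX, the stromal ascorbate peroxidase, a haem enzyme, was at 5.1 and 4.7 in Fe-deficient wild type, 5 and 5.4 in irt1, and 8.5 and 8.1 in wild type with Fe. The irt1 and Fe-deficient wild-type groups differed by 0.30 ± 0.21 and overlapped. The thylakoid enzyme TAPX differed by -0.10, and the vacuolar Fe transporter-like genes VTL3 and VTL4 by 0.15 each. The ferritin, nicotianamine synthase, FRO reductase and OPT3 genes of the lists carry no name in the annotation used and cannot be followed by name here.

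Among chloroplast genes there were no calls either. Of 8 chlorophyll and haem synthesis genes, 5 photosystem and antenna genes and 4 of carbon fixation and photorespiration, none was called. Nor was any of 4 genes of Fe-S cluster assembly and Fe-S enzymes. The list medians were 0.075, 0.10, 0.10 and 0.175 in that order. Of all probe sets, 0.409% were called. Counts of 0 in lists of this size are near that background and do not show that the levels were alike. PSAN, a photosystem I subunit on the lumen side, was at 10.6 and 10.8 in Fe-deficient wild type, 11.1 and 11.2 in irt1, and 12.1 and 12.3 in wild type with Fe, so irt1 lay between the wild-type groups (difference 0.45 ± 0.15, adjusted p = 0.322). LHCB4.3, an antenna protein of photosystem II, was at 7.2 on both Fe-deficient arrays, 7.2 and 7.6 in irt1, and 9.3 and 9.0 with Fe. Among 69 measured genes of the plastid genome itself, none was called (lowest adjusted p 0.162), where 0.409% of all probe sets were called. Their median was -0.15, with a range from -0.65 to 0.50. In roots the same comparison called 13 of the 69 higher in irt1, with a median of 0.60 (1.06% of all probe sets were called higher there).

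**Figure D2:**
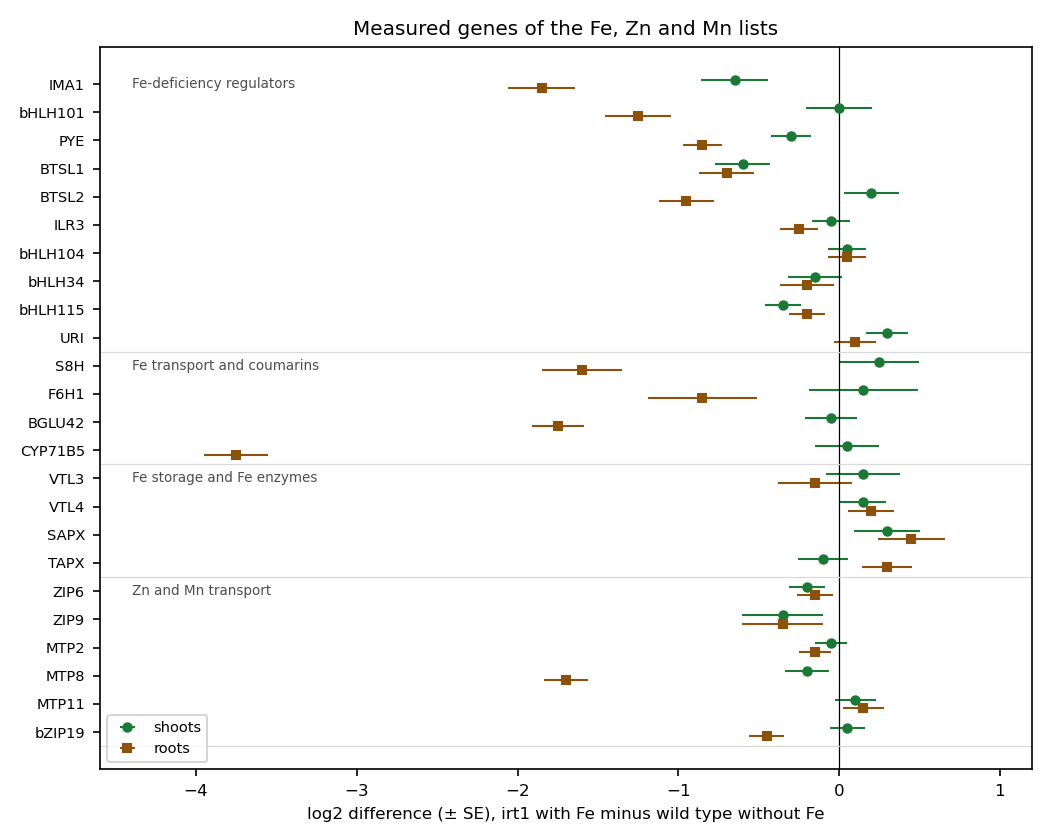
Log2 difference between irt1 with Fe and wild type without Fe for the measured genes of the Fe, Zn and Mn lists, in shoots (circles) and roots (squares), with bars for ± SE. The shoot values lie between -0.65 and 0.30 and none is called, while root values reach -3.75.

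In roots, 4 of the 10 regulators and 3 of the 4 transport and coumarin genes were called lower in irt1 than in Fe-deficient wild type (0.774% of all probe sets were called lower there). A call in roots and none in shoots does not by itself show that the tissues differ. For CYP71B5, a cytochrome P450 gene, the difference between the tissues was itself called: it was at 6.4 and 6.1 in Fe-deficient shoots and 6.5 and 6.1 in irt1 shoots, but at 7.5 and 8 in Fe-deficient roots and 4 on both irt1 root arrays. The shoot difference exceeded the root difference by 3.80 ± 0.28 (adjusted p = 0.000127). BGLU42, a beta-glucosidase that acts on root phenolics, differed by -0.05 in shoots and -1.75 in roots (difference of the tissues 1.70 ± 0.23, adjusted p = 0.0113). MTP8, a vacuolar Mn and Fe transporter, differed by -0.20 in shoots and -1.70 in roots (difference of the tissues 1.5 ± 0.20, adjusted p = 0.0104). For IMA1 and bHLH101, with root differences of -1.85 and -1.25, the tissues were not shown to differ (adjusted p = 0.168 and 0.137). The same held for PYE and BTSL2, the other regulators called in roots (adjusted p = 0.310 and 0.0983). It also held for S8H of the transport and coumarin list (adjusted p = 0.0684).

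Of the 12 named genes with the largest falls in irt1, 7 are on a list of genes that respond to disturbed mitochondria. Plants answer a block of mitochondrial respiration by raising nuclear genes for alternative NAD(P)H dehydrogenases, AT12CYS proteins, UPOX and others, in part through membrane-bound NAC factors. The list of 24 such loci was drawn up after the values had been seen, so its counts are a description and no test of the list. Of 10 measured, 7 were lower in irt1 than in Fe-deficient wild type and none higher, with a median of -1.725 (0.286% of all probe sets were called lower). In wild-type shoots without against with Fe, 7 of the 10 were higher with a median of 2.5 and none was lower (2.67% of all probe sets were called higher and 2.19% lower), and in irt1 against wild type with Fe, 3 of 10 were higher with a median of 0.40 and none was lower (1.93% and 1.65%). These comparisons share arrays. In roots, 5 of the 10 were lower in irt1 than in Fe-deficient wild type, with a median of -0.75 (0.774% of all probe sets were called lower).

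AT2G04050, a transporter gene of the MATE efflux family, had the largest difference of the comparison. It was at 8.2 and 6.9 in Fe-deficient wild-type shoots, at 4 on both irt1 arrays, and at 3.6 and 3.7 in wild type with Fe. Only the Fe-deficient wild-type shoots were high. On the deposited scale the level was 11.7-fold lower in irt1 (-3.55 ± 0.29 log2 units, adjusted p = 0.000417). The irt1 level was near the lower end of the scale, where log2 differences can be understated, and the values carry no detection call. In roots the gene lay near the lower end of the scale in both groups, at 4.1 on both Fe-deficient arrays and 3.7 and 3.6 in irt1. The shoot and root differences were themselves apart by -3.10 ± 0.41 (adjusted p = 0.011). Its neighbour and family member AT2G04070 was at 5.8 and 4.8, 3.9 and 4, and 4.1 and 3.9 in the same order of shoot groups, a difference of -1.35 ± 0.24 (adjusted p = 0.042). The 2 genes are similar copies, and whether their probes share targets was not tested.

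UPOX (AT2G21640), known as a marker of mitochondrial oxidative stress, was at 9.2 and 8.3 in Fe-deficient wild-type shoots, 6.7 and 6.4 in irt1 and 5.1 and 5 with Fe. The difference was -2.2 ± 0.23 (adjusted p = 0.00221), and irt1 lay between the wild-type groups without overlap. AT12CYS-2 (AT5G09570), a small cysteine-rich protein of mitochondria, had the same order, at 7.7 and 7 without Fe, 5.6 and 5.2 in irt1 and 4.5 and 4.1 with Fe (-1.95 ± 0.22, adjusted p = 0.00496). Both genes remained called without any single array of the 4. In roots UPOX differed by -2.15 and AT12CYS-2 by -1.60, and both were called there too.

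HSP23.5 (AT5G51440), a small heat shock protein of mitochondria, was at 7 and 6 without Fe, 4.2 and 4 in irt1, and 3.6 and 3.3 with Fe, a difference of -2.40 ± 0.32 (adjusted p = 0.0102). AT2G41730, a gene induced by low oxygen and other stresses, was at 9.8 and 8.8, 7.5 and 6.9, and 6 and 5.8 (-2.10 ± 0.29, adjusted p = 0.0108). NDB4, an external alternative NAD(P)H dehydrogenase, was at 5.8 and 5, 3.9 on both arrays, and 3.4 and 3.5 (-1.5 ± 0.21, adjusted p = 0.0114). In all 7 genes, Fe-deficient replicate 1 lay above replicate 2, by 0.7 to 1.3 log2 units. HSP23.5 was no longer called without irt1 replicate 1 (adjusted p = 0.0543), irt1 replicate 2 (0.0597) or Fe-deficient replicate 1 (0.103). AT2G41730 was not called without irt1 replicate 2 (0.0662) or Fe-deficient replicate 1 (0.0736), NDB4 not without irt1 replicate 1 (0.0681) or 2 (0.0597), and AT2G04070 not without irt1 replicate 1 (0.164), irt1 replicate 2 (0.114) or Fe-deficient replicate 1 (0.111). The 3 uncalled members were NDB2, another external dehydrogenase, at -0.30, the glutathione transferase GSTU25 at -0.40 and AT12CYS-1 at -0.10.

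**Figure D3:**
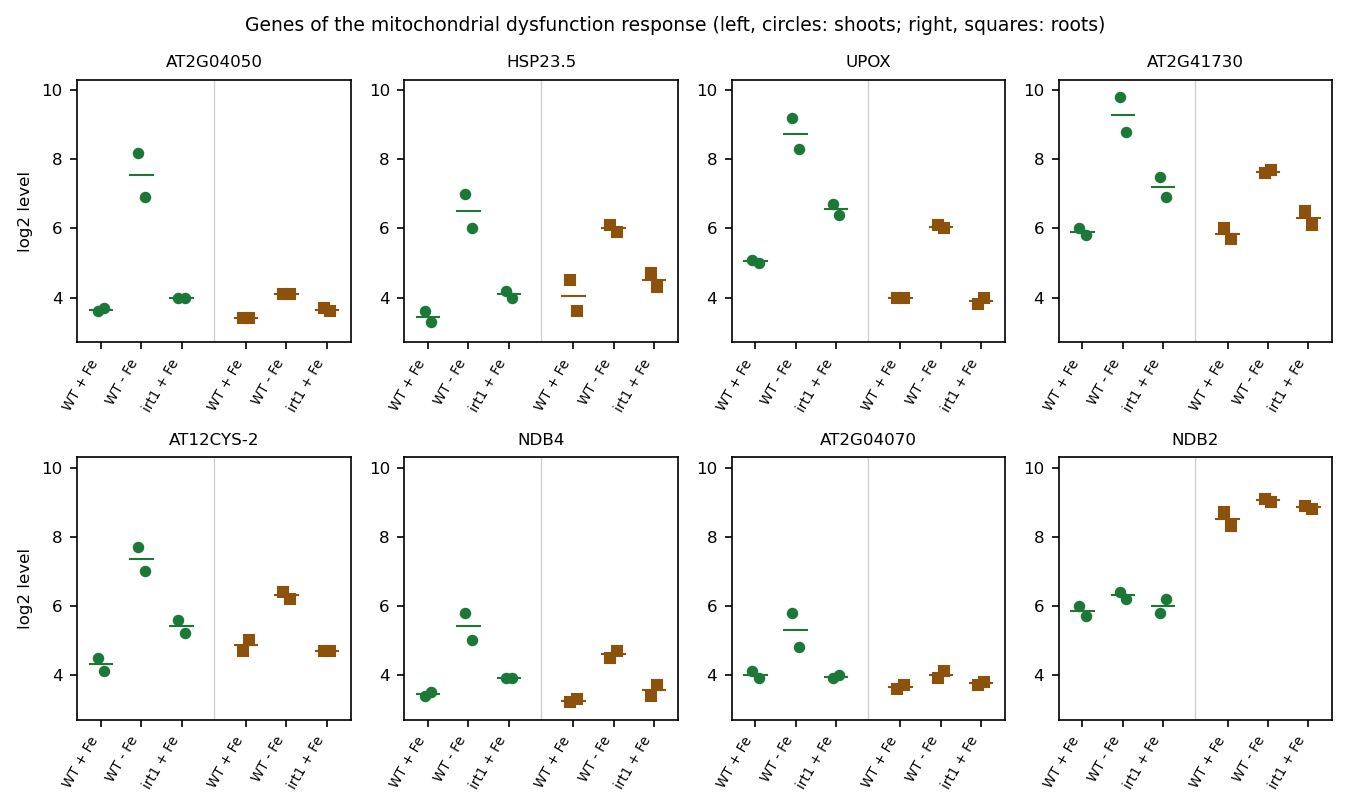
Log2 level on every array (points) and group means (lines) for 8 genes of the mitochondrial response list, in shoots (left, circles) and roots (right, squares) of Fe-supplied wild type, Fe-deficient wild type and irt1. In 7 of the 8 shoot panels, those of the called genes, the Fe-deficient wild type is highest with no overlap with irt1. A call itself favours groups that do not overlap. The uncalled list members AT12CYS-1 and GSTU25 are not shown. In the NDB2 panel irt1 differs by -0.30.

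A second set of genes set irt1 apart from wild type on either medium. FHIT, a fragile histidine triad nucleotide hydrolase gene, was at 7.7 and 7.6 in Fe-deficient wild-type shoots, 7.6 and 7.8 in wild type with Fe, and 5.9 and 6 in irt1. It was 3.25-fold lower in irt1 (-1.70 ± 0.11, adjusted p = 5.29e-05), and in roots it was at 7.2 and 7.1 without Fe against 5.7 and 5.6 in irt1. AT3G56370, a leucine-rich repeat receptor-like kinase gene, was at 7.7 and 7.5, 7.3 and 7.2, and 6.1 and 5.7 in the same order of shoot groups (-1.70 ± 0.14, adjusted p = 0.000446), and differed by -1.75 in roots. AT4G12790, a P-loop NTPase gene, was at 8.3 on both Fe-deficient arrays, 8.3 and 8.2 with Fe and 7.1 and 7.3 in irt1 (-1.10 ± 0.11, adjusted p = 0.00145), with -0.90 in roots. In these 3 genes the wild-type media differed by 0.35 or less while irt1 lay more than 1 log2 unit below, and each was called without any single array of the 4.

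Further genes also had irt1 apart from both wild-type groups. AGL26 was at 8.1 and 8 without Fe, 8 and 8.3 with Fe, and 7 and 7.3 in irt1 (-0.90 ± 0.13, adjusted p = 0.0155), and differed by -1.10 in roots. It was not called without irt1 replicate 1 (adjusted p = 0.0846), Fe-deficient replicate 1 (0.193) or 2 (0.0644). On the higher side, AT5G26270 was at 5.1 and 5.3 without Fe, 5.4 and 5.3 with Fe, and 6.5 and 6.2 in irt1 (1.15 ± 0.21, adjusted p = 0.0421), with 1.25 in roots, and lost its call without any 1 of the 4 arrays (adjusted p from 0.0739 to 0.409). AT3G53370 was at 5 and 4.8, 5.4 and 5.3, and 5.8 and 5.9 (0.95 ± 0.11, adjusted p = 0.0047), with 0.60 in roots, and kept its call without each array in turn. AT4G12790 and AGL26 were singled out after their values were seen.

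AT1G09500, an alcohol-dehydrogenase-like gene of the NAD(P)-binding fold, had the largest called rise, and it was seen in shoots. It was at 3.4 and 3.1 in Fe-deficient shoots, 3.3 and 3.1 with Fe, and 5.2 and 5.1 in irt1, so both irt1 arrays stood apart from all 4 wild-type arrays. On the deposited scale the gene was 3.73-fold higher in irt1 (1.9 ± 0.12, adjusted p = 5.29e-05), with both wild-type groups near the lower end of the scale. In roots it was at 2.5 and 2.6 without Fe and 2.6 on both irt1 arrays. The tissues differed by 1.85 ± 0.18 (adjusted p = 0.00103).

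**Figure D4:**
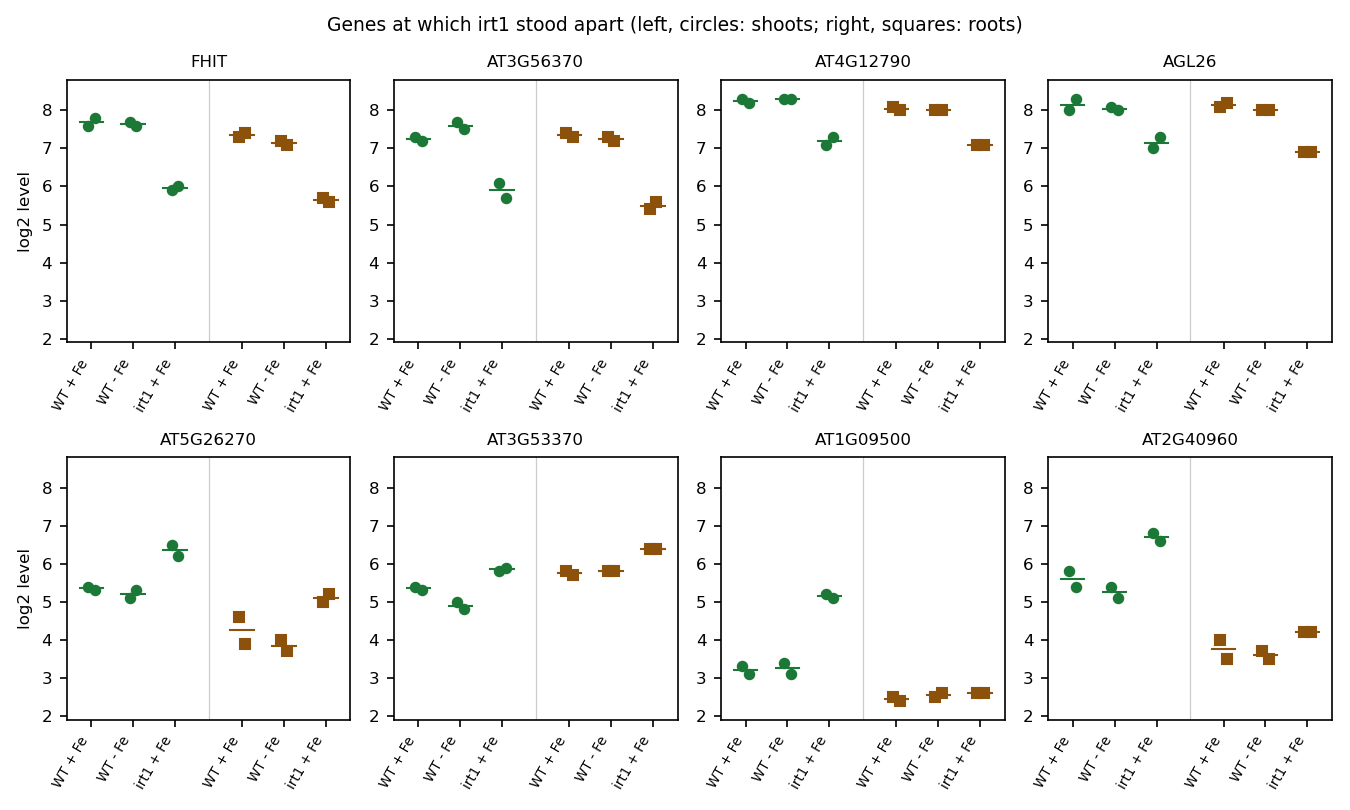
Log2 level on every array (points) and group means (lines) in shoots (left, circles) and roots (right, squares) for 8 genes whose irt1 shoot arrays lie apart from the wild-type shoot arrays with and without Fe. FHIT, AT3G56370, AT4G12790 and AGL26 are low in irt1 shoots and roots, while AT1G09500 is high in irt1 shoots and at 2.6 on both irt1 root arrays.

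Other genes called higher in irt1 shoots had various levels in the Fe-supplied wild type. AT2G40960, an R3H-domain nucleic-acid binding gene, was at 5.4 and 5.1 without Fe, 6.8 and 6.6 in irt1 and 5.8 and 5.4 with Fe (1.45 ± 0.18, adjusted p = 0.00807). QQS, an orphan gene known to affect leaf starch, was at 4.6 and 4.8, 5.6 and 5.8, and 4.9 and 4.7 (1.00 ± 0.17, adjusted p = 0.0323). AT3G62950, a glutaredoxin gene, was at 5.5 and 6, 6.7 and 7, and 7.8 and 8.3, so irt1 lay between the wild-type groups (1.1 ± 0.19, adjusted p = 0.0387). AT4G25030 likewise lay between, at 6.7 and 6.4, 7.3 and 7.4, and 9 and 8.8 (0.80 ± 0.14, adjusted p = 0.0442).

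AT5G64190 was 1.05 higher, AT3G20340 0.85, AT3G57770 0.80, the kinase gene WNK7 0.80 and TTL 0.75, with adjusted p from 0.00807 to 0.0266. All 9 genes of the last 2 paragraphs lost the call without at least 1 array. AT2G40960 lost it without irt1 replicate 1 (adjusted p = 0.0577) or Fe-deficient replicate 2 (0.0625), and AT5G64190 without replicate 1 of irt1 (0.0556) or of the Fe-deficient wild type (0.0696). AT3G62950 lost it without irt1 replicate 1 (0.0824) or 2 (0.146) or Fe-deficient replicate 1 (0.383). QQS (0.0824 to 0.347), AT4G25030 (0.116 to 0.205) and TTL (0.0794 to 0.262) lost it without any 1 of the 4 arrays. AT3G20340 and AT3G57770 held it only without irt1 replicate 2, and WNK7 only without Fe-deficient replicate 1.

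On the lower side, AT5G43450, of the 2-oxoglutarate and Fe(II)-dependent oxygenase family, was at 9.5 and 8.8 without Fe, 7.3 and 7.5 in irt1, and 7.1 and 6.2 with Fe (-1.75 ± 0.28, adjusted p = 0.0262). Without Fe-deficient replicate 2 it kept the call, and without irt1 replicate 1 (0.13), irt1 replicate 2 (0.079) or Fe-deficient replicate 1 (0.306) it did not. AT3G02480, a late embryogenesis abundant family gene induced by abscisic acid and drought, was at 9.3 and 9 without Fe, 7.9 and 7.1 in irt1, and 3 and 3.7 with Fe, so that irt1 was nearer to the Fe-deficient than to the Fe-supplied wild type. The difference was -1.65 ± 0.28 (adjusted p = 0.0327) in shoots and -2.35 in roots. It was not called without irt1 replicate 2 (0.125), Fe-deficient replicate 1 (0.361) or Fe-deficient replicate 2 (0.103). AT2G03130 was at 5.7 and 4.6, 3.6 on both irt1 arrays, and 3.5 and 3.7 (-1.55 ± 0.26, adjusted p = 0.0327), and kept its call only without Fe-deficient replicate 2.

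The remaining lists held few named genes and 2 calls in all, where 0.409% of all probe sets were called. Of 4 genes of the response to abscisic acid, cold and drought, AT3G02480 was called, and COR15A and COR15B, neighbouring cold-regulated genes, were at -0.55 and 0.65 without a call. Of 5 genes of oxidative stress and antioxidants, UPOX was called, and the list median was -0.30. The anthocyanin genes DFR, for dihydroflavonol reductase, and UF3GT, for a glycosyltransferase, were at -0.70 and -1.0 (adjusted p = 0.439 and 0.264). APL3, a large subunit of ADP-glucose pyrophosphorylase in starch synthesis, was at 5.5 and 5.1 without Fe and 4.5 and 4.6 in irt1 (-0.75 ± 0.16, adjusted p = 0.0977). APL4, another large subunit, which was singled out after its values were seen, was at 6 and 5.5, and 4.6 and 4.5 (-1.20 ± 0.17, adjusted p = 0.0114), and was called only with all 4 arrays or without Fe-deficient replicate 2. The 3 defensin genes of the jasmonate list (median -0.05), the clock gene GI (0.30) and the sulfur gene BCAT4 (-0.15) were not called. No gene of the nitrate and phosphate list or the heat shock list is named among the probe sets.

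Unnamed probe sets included some of the largest differences. Of those without a gene in the annotation, the lowest were 263231_at, at 8.4 and 7.2 without Fe and 5.2 and 4.3 in irt1 (-3.05 ± 0.36, adjusted p = 0.00573), and 266752_at at -2.25. The highest were 247866_at at 1.55 and 250476_at, at 5.1 on both Fe-deficient arrays and 6.6 on both irt1 arrays (1.5 ± 0.15, adjusted p = 0.0018).

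The root arrays, which share no array with the shoot comparison but share its estimate of spread, gave a second view of the same contrast. Over all probe sets, 1.83% were called in roots and 0.409% in shoots. A spread shared by both comparisons can favour calls in both, so an overlap of the calls is not independent support. Of the 93 probe sets called in shoots, 21 were also called in roots. These 21 make up 22.6% of the shoot calls and 5.05% of the 416 root calls. Of these, 16 were lower in irt1 in both tissues, 4 were higher in both, and AT5G22580, named here because it was the exception, was -0.80 in shoots and 0.65 in roots. The difference between the tissues was called for 43 probe sets (0.189%), 19 with the shoot value above the root value and 24 below. Of these 43, 7 were also called in shoots.

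**Figure D5:**
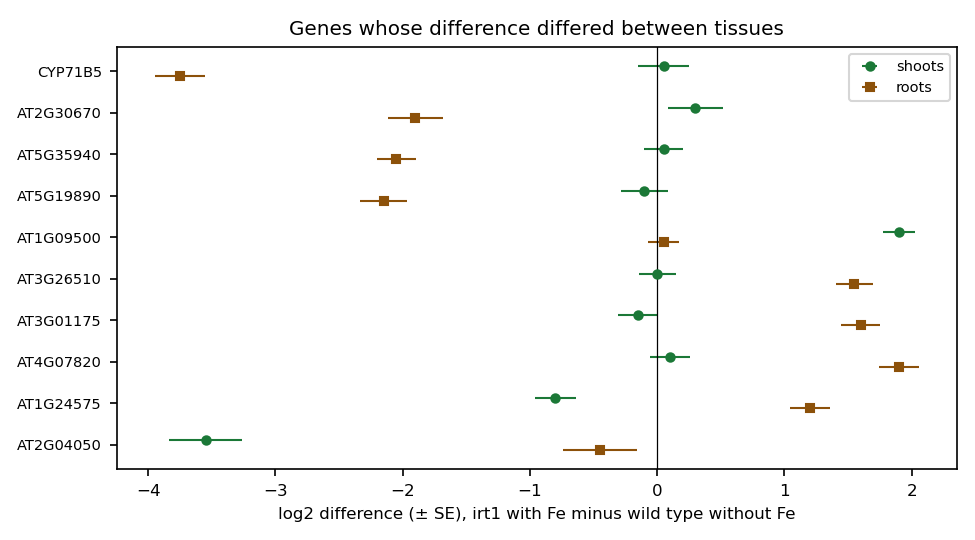
Log2 difference between irt1 with Fe and wild type without Fe in shoots (circles) and roots (squares), with bars for ± SE, for the 5 named genes with the highest and the 5 with the lowest called tissue difference. AT2G04050 and AT1G09500 depart from 0 in shoots, at -3.55 and 1.9, and the other 8 genes are farther from 0 in roots.

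The genes beside the IRT1 locus were examined because a mutant line can differ from its wild type in more than the named allele. Of the 25 annotated loci on each side of IRT1 on chromosome 4, 23 probe sets were measured under a locus. Unnamed probe sets could not be placed, so any from this stretch were left out. None of the 23 was called in shoots, where the largest size was 0.45 and 0.409% of all probe sets were called. AT4G19720, named because it was the exception, was called in roots (0.85, adjusted p = 0.0117), where 1.83% of all probe sets were called. Both counts are near the background. The called probe sets with a locus were spread over the 5 nuclear chromosomes: 10 of 3451 on chromosome 1, 11 of 2200 on chromosome 2, 10 of 2746 on chromosome 3, 7 of 1962 on chromosome 4 and 11 of 3008 on chromosome 5.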

How the data were processed

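Each array has 1 deposited log2 value for each probe set, which the authors computed with RMA per the submitters' processing notes. Its version is not given in the sources used here, nor is whether both tissues were normalised in 1 run. Values carry 1 decimal, so a difference of group means moves in steps of 0.05. Biotin-labelled cRNA came from 5 µg of total RNA per the labels.

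Of 22810 probe sets, 64 controls were left out. Platform annotation gave 1 gene to 13513, several to 503 and none to 8730, and symbols were updated through the RefSeq table of TAIR10.1. limma 3.58.1 in R 4.3.3 fitted 1 mean per group over 12 arrays (6 residual degrees of freedom), with eBayes, two-sided tests and Benjamini-Hochberg adjustment over 22746 probe sets. All SE and p-values come from this fit. Intervals are 95% and unadjusted. An exact permutation test of 2 against 2 arrays cannot go below 0.333.

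The comparison and the 18 lists (366 loci, 64 measured) were chosen with earlier results of these data known. The mitochondrial list was added after the values were seen. Named were the 12 called genes with the largest and the 12 with the lowest differences, the 5 most extreme tissue differences each way, called list members and measured members of the Fe lists; others are marked. Replicate numbers come from titles that call the replicates biological but give no separate cultures, so p-values measure the spread between these arrays. Alternatives covered the arrays fitted, the variance model, weights, replicate block, omitted arrays, filters and scaling.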

Additional observations from a re-analysis of the deposited data

Results flagged for a closer look

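In 43 probe sets the difference between irt1 with Fe and wild type without Fe was itself different in shoots and roots, by the interaction contrast of the limma model at an adjusted p under 0.05 (0.189% of those tested). Given as shoot minus root on the log2 scale, the named genes on the higher side were CYP71B5 at 3.80, AT2G30670 at 2.2 (shoot 0.30, root -1.9), AT5G35940 at 2.1 (shoot 0.05, root -2.05), the peroxidase gene AT5G19890 at 2.05 (shoot -0.10, root -2.15) and AT1G09500 at 1.85. Of these 5, AT1G09500 was called in shoots, and the other 4 were called in roots.

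On the lower side were AT2G04050 at -3.10, AT1G24575 at -2.00 (shoot -0.80, root 1.2), AT4G07820 at -1.80 (shoot 0.10, root 1.9), AT3G01175 at -1.75 (shoot -0.15, root 1.60) and AT3G26510 at -1.55 (shoot 0.00, root 1.55). Of these 5, AT2G04050 was called in shoots and the other 4 in roots.

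The largest of the 43 was the unnamed probe set 254550_at, singled out after its values were seen, at 7.15 ± 0.24 (adjusted p = 9.94e-08). Which gene 254550_at measures cannot be told from the annotation used, and it can be IRT1 itself. It was at 4.4 on both Fe-deficient shoot arrays and 3.1 and 3.7 in irt1 shoots (-1.0, adjusted p = 0.0327), and at 11.7 and 11.8 in Fe-deficient roots, 7.9 and 7.7 in roots with Fe and 3.7 and 3.5 in irt1 roots (-8.15, adjusted p = 4.73e-10). Groups of 2 arrays are too small for a check of single outlying arrays.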

How the results depend on the processing

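Every one of the 93 called probe sets kept its direction in each alternative that held it, while the number past the threshold moved. The kept direction is no support, because most alternatives could not change it. Fits on the same shoot values give the same difference. Groups that do not overlap cannot change sign when an array is left out. With the 6 arrays of one tissue, calls fell to 0 in shoots in total and in each direction (lowest adjusted p 0.139) and 22 in roots, and to 0 of the mitochondrial list and 0 in the same direction in both tissues. With only the groups compared there were 0 calls in shoots, 0 in roots (lowest adjusted p 0.121, with 3014 at an unadjusted p under 0.05), 16 for the tissue difference, 0 of the mitochondrial list and 0 in the same direction in both tissues, against 93, 416, 43, 7 and 20 with all arrays. These fits hold fewer arrays to estimate the spread, and those of the shoot calls no longer draw on the root arrays, whose replicates differed less than those of irt1 shoots. Array weights gave 57 calls (13 higher), trended variances 70 for the tissue difference, a mean of at least 5 gave 18 higher, and a 2-fold minimum gave 50 (10 higher, 40 lower) and 144 in roots. The replicate block gave 134 calls (50 higher) and 75 for the tissue difference. The titles give the numbers without naming a shared origin. The replicate differences of the 2 shoot groups correlated at 0.136, and those of all pairs of groups at -0.092 to 0.199, which with 2 replicates a group does not settle whether the numbers pair the samples.

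Leaving out 1 array gave 22 to 57 shoot calls (5 to 21 higher, 17 to 45 lower), 17 to 45 for the tissue difference, 81 to 163 in roots, 3 to 7 of the mitochondrial list and 8 to 12 in the same direction in both tissues. A group then left with 1 array was assumed to vary like the others, and part of the shoot calls were not among the 93. Without the Fe-supplied wild-type shoots, an alternative added after the values were seen, 83 were called, of which 74 were among the 93. Robust variances gave 96, median centring 91 and renewed quantile normalisation 92. The cause of these shifts was not tested. Precision is limited by 2 arrays a group: the median SE was 0.135, and the smallest called shoot differences were 0.60 and -0.70, while uncalled ones reached 2.00 in size.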

Other observations

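Besides the called probe sets, 34 were at least 2-fold apart between irt1 and Fe-deficient wild-type shoots without passing the threshold (lowest adjusted p 0.0573, largest size 2.00). Of these, 26 were higher in irt1 and 8 lower, whereas among the 93 called the lower side held 65. In 16 of the 34 the 2 irt1 arrays were at least 1 log2 unit apart, and in 7 the 2 wild-type arrays were. Among the 93 called probe sets the counts were 1 and 9.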
